A study of Homo sapiens with 9 samples.

Results

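The ATF4 arm of the amino acid stress response was followed through 10 genes in K562 cells by TIF-Seq2, a method that reads the capped 5′ end and the polyadenylated 3′ end of the same RNA molecule as one read pair. K562 is an established line of human chronic myeloid leukaemia cells that carries the BCR-ABL1 fusion kinase, and imatinib is an inhibitor of that kinase. Cells in a medium with L-glutamine received 1 µM imatinib or its solvent DMSO for 24 h, and 2 libraries were made for each condition, named here DMSO 1, DMSO 2, imatinib 1 and imatinib 2. The study describes the 2 libraries of a condition as biological replicates, and GEO's labels only number them. These genes, the members below, were ATF4, ATF5, DDIT3, TRIB3, CHAC1, ASNS, PSAT1, PHGDH, SESN2 and VLDLR, that is 10 of 62700 genes of the Gencode v44 annotation. A read pair was counted for a gene when both its ends lay on the gene's strand within 1000 bp of the gene body. Of these 10 genes 9 had at least 1 read pair and 8 passed the filter on low counts, among 22384 genes with read pairs and 12135 tested genes in all.

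When amino acids run short or misfolded proteins accumulate, one of the kinases EIF2AK1, EIF2AK2, EIF2AK3 and EIF2AK4 phosphorylates the translation factor eIF2. Most protein synthesis then slows, while the ATF4 mRNA is translated better because short upstream open reading frames in its leader no longer keep ribosomes away from the coding sequence. ATF4 is a transcription factor that turns on genes for amino acid synthesis and uptake, tRNA charging and stress signalling. ATF5 and DDIT3 also carry upstream reading frames in their leaders. The libraries measure RNA, so a change in the translation of these mRNAs would not be seen in them.

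The 4 libraries held 2263121 to 5135829 read pairs, with imatinib 2 the smallest. Between 84.5% and 87.5% of the read pairs that met a coding gene started at an annotated start, and the lowest share was that of imatinib 1. The replicates correlated with Pearson's r = 0.976 in DMSO and 0.95 in imatinib over the tested genes, on the log2 scale of counts per 1000000 read pairs (CPM). The defining erythroid markers GATA1, TAL1, LMO2, KLF1, HBG2, HBE1 and TFRC all had read pairs in every library, from 55 for TAL1 to 37969 for HBG2. Fewer of them began at annotated starts, 4 to 42 per library for TAL1 and 28 to 154 for LMO2. CD3E had 0 read pairs, ALB at most 2 and COL1A1 at most 13, whereas EPCAM had 208 to 703.

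None of the 8 tested members passed an adjusted p of 0.05 in edgeR's quasi-likelihood test of imatinib against DMSO, against 14.8% of all genes tested (8.69% higher and 6.15% lower after imatinib). DESeq2 also called 0 members, and at an unadjusted p under 0.05 each tool had 1 member, beside 31.2% of all tested genes with edgeR. The median log2 fold change of the 8 tested members was 0.26, beside 0.03 over all tested genes, and the values ran from -1.05 for TRIB3 to 0.68 for SESN2. The CPM values of the 2 conditions did not overlap for TRIB3 and SESN2, and they did not overlap for 60.0% of all tested genes. In these bulk libraries, a change in the mixture of cells and a change in RNA per cell cannot be told apart.

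ATF4, the transcription factor at the centre of the response, is an intron-containing gene on chromosome 22 (hg38 chr22:39519695-39522683, plus strand). It gave 1259 and 1977 read pairs in DMSO 1 and 2, which is 364 and 380 CPM. Imatinib 1 held 2845 read pairs and imatinib 2 held 615, which is 629 and 273 CPM. The DMSO libraries lay close together and both sat between the imatinib libraries, so the groups overlapped. The log2 fold change was 0.28 ± 0.37 (SE, 95% interval -0.55 to 1.11, adjusted p = 0.65). Imatinib 1 exceeded imatinib 2 by 1.2 on the log2 scale, while 90% of all tested genes differed between these libraries by -0.97 to 1.33. Without imatinib 2 the log2 fold change was 0.73 and passed the test (adjusted p = 0.042), and without imatinib 1 it was -0.43 (adjusted p = 0.32).

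ATF5, a related factor that acts on survival genes and mitochondrial stress genes, lies at chr19:49928702-49933935 (plus strand). Its 4 libraries held 135, 341, 329 and 89 read pairs in the order DMSO 1, DMSO 2, imatinib 1, imatinib 2, or 39.0, 65.6, 72.8 and 39.6 CPM. The libraries fell into a low and a high pair with one library of each condition in both. The log2 fold change was 0.11 ± 0.38 (SE, 95% interval -0.75 to 0.97, adjusted p = 0.87), and it turned to -0.24 without DMSO 1 and to -0.40 without imatinib 1.

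DDIT3, which encodes the factor CHOP that promotes cell death under prolonged stress, lies at chr12:57516588-57521737 (minus strand). It had 460 and 527 read pairs in DMSO (133 and 101 CPM) and 688 and 274 in imatinib (152 and 122 CPM). The ranges overlapped, and the log2 fold change was 0.23 ± 0.28 (SE, 95% interval -0.40 to 0.86, adjusted p = 0.62).

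TRIB3, a pseudokinase that ATF4 and DDIT3 switch on and that restrains both, had the largest difference of the tested members. It lies at chr20:362835-397559 (plus strand) and gave 70 and 74 read pairs in DMSO against 32 and 22 in imatinib. In CPM these were 20.2 and 14.2 in DMSO and 7.08 and 9.78 in imatinib, so both treated libraries lay under both controls. The log2 fold change was -1.05 ± 0.37 (SE, 95% interval -1.89 to -0.21), with an unadjusted p of 0.019 and an adjusted p of 0.090. It passed the test without imatinib 2 (-1.29, adjusted p = 0.0090) and when no filter on low counts was set (-1.13, adjusted p = 0.045). When only 5′ ends within 100 bp of an annotated start were counted, it was -0.67 (adjusted p = 0.37). Such ends took 53.5% of the TRIB3 read pairs.

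CHAC1, an enzyme that breaks down glutathione and a late target of the response, was near the lower end of what these libraries can show. It lies at chr15:40952962-40956512 (plus strand) and had 8 and 7 read pairs in DMSO and 14 and 3 in imatinib. It did not pass the filter on low counts. Per read pair sequenced, imatinib held 1.53 times the DMSO count, with an exact 95% interval from 0.72 to 3.30 that covers counting error only.

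SESN2, a sensor of leucine that holds back the growth kinase mTORC1, lies at chr1:28259518-28282491 (plus strand). Its libraries held 23 and 25 read pairs in DMSO and 37 and 23 in imatinib. In CPM these were 6.64 and 4.81 against 8.18 and 10.2, and the groups did not overlap. The log2 fold change was 0.68 ± 0.39 (SE, 95% interval -0.21 to 1.57, adjusted p = 0.27).

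Of the 3 enzymes that make amino acids, ASNS and PHGDH had positive and PSAT1 negative fold changes, and none passed the test. ASNS makes asparagine from aspartate and lies at chr7:97851677-97872542 (minus strand). It gave 471 read pairs in DMSO 1 and 271 in DMSO 2, or 136 and 52.1 CPM. Imatinib 1 and 2 gave 680 and 270, or 150 and 120 CPM, so DMSO 2 stood below the other 3 libraries. The log2 fold change was 0.53 ± 0.42 (SE, 95% interval -0.41 to 1.47, adjusted p = 0.42). It was 1.35 without DMSO 1 (adjusted p = 0.091) and -0.02 without DMSO 2 (adjusted p = 0.99). A long non-coding RNA gene overlaps ASNS on its strand, so ASNS had no value when only read pairs of a single gene were counted.

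PHGDH, which commits glycolytic carbon to serine synthesis, lies at chr1:119648411-119744218 (plus strand). It held 285 and 313 read pairs in DMSO (82.3 and 60.2 CPM) and 456 and 167 in imatinib (101 and 74.2 CPM), with overlapping groups and a log2 fold change of 0.30 ± 0.30 (SE, adjusted p = 0.53). PSAT1, the enzyme that follows PHGDH in the same route, lies at chr9:78297125-78330093 (plus strand). Its read pairs were 221 and 177 in DMSO (63.8 and 34.0 CPM) and 124 and 90 in imatinib (27.4 and 40.01 CPM). The log2 fold change of PSAT1 was -0.54 ± 0.38 (SE, 95% interval -1.39 to 0.31, adjusted p = 0.36), and it was -0.05 without DMSO 1.

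VLDLR, a receptor for lipoproteins and reelin at chr9:2621182-2660056 (plus strand), had 0 read pairs in all 4 libraries. No read pair entered or left its locus either. A count of 0 allows up to 3 read pairs per library, which is 0.867, 0.577, 0.663 and 1.33 CPM in DMSO 1, DMSO 2, imatinib 1 and imatinib 2. Expression below these limits would not be detectable at this depth, and no fold change can be given. The limits cover counting only. The MANE transcript of VLDLR is 9213 bases long, against 903 to 3462 bases in the other members. Whether molecules of this length enter the libraries as well as shorter ones was not tested.

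**Figure D1:**
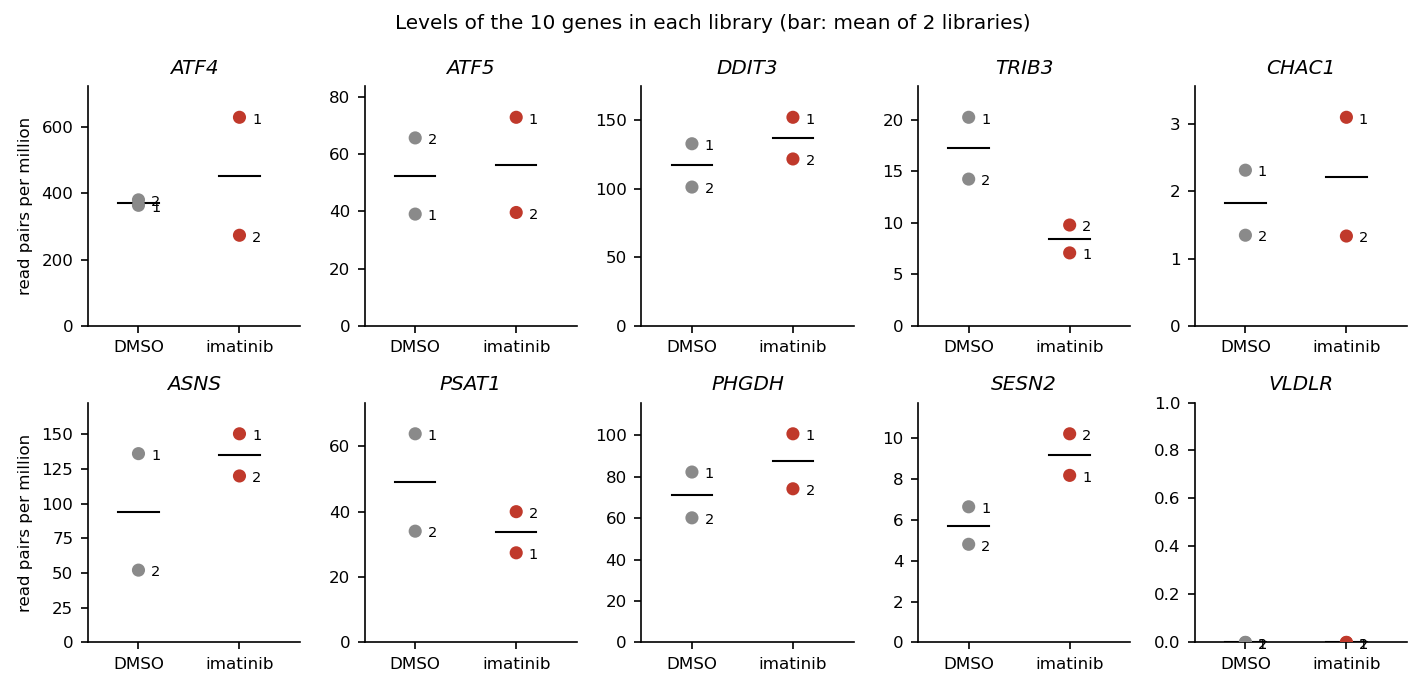
CPM (vertical axes, each starting at 0) of the 10 genes in the 2 DMSO and the 2 imatinib libraries, with the replicate number beside each point and a bar at the mean. TRIB3 (20.2 and 14.2 against 7.08 and 9.78) and SESN2 (6.64 and 4.81 against 8.18 and 10.2) are the members whose groups do not overlap, and for ATF4 the imatinib libraries lie on either side of the controls.

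**Figure D2:**
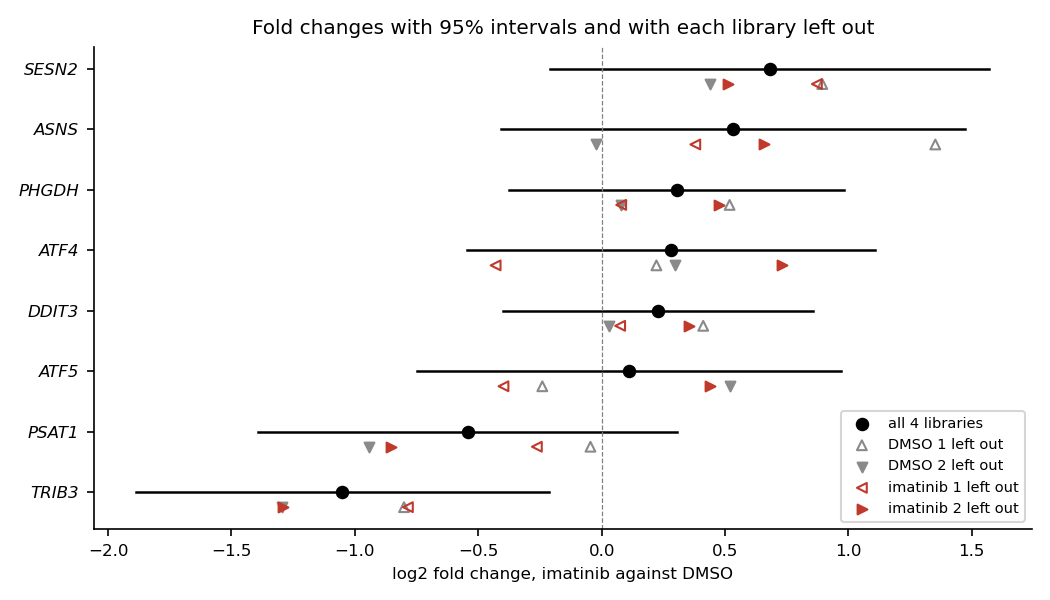
Log2 fold changes of the 8 tested members with 95% intervals (black), and the same values with each library left out in turn (grey triangles for DMSO, red for imatinib). TRIB3 alone has an interval that excludes 0 (-1.89 to -0.21), and ATF4 moves from -0.43 to 0.73 with the choice of the imatinib library.

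The 5′ ends show where the sequenced molecules of these genes began. The most used start matched the start of the MANE Select transcript, the reference isoform, to the base in ATF4, ATF5, TRIB3, CHAC1 and ASNS, and lay 2, 2, 3 and 6 bases downstream of it in PHGDH, PSAT1, DDIT3 and SESN2. ATF5 began in a sharp peak, with 65.7% of its read pairs at the single base chr19:49929205. In DDIT3, 46.6% began at chr12:57520511, and in PHGDH 34.3% at chr1:119711936. ATF4 began mostly at the neighbouring bases chr22:39520562 and chr22:39520563, with 25.0% and 23.6% of its read pairs.

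TRIB3, ASNS and PSAT1 began more broadly. The most used base of TRIB3, chr20:380760, took 7.07% of its 198 read pairs, which started at 93 positions, and the middle 50% of them spanned 259 bp. In ASNS the middle 50% spanned 36 bp and in PSAT1 49 bp, against 1 or 2 bp in ATF5, DDIT3 and ATF4 and 4 bp in PHGDH. In SESN2 it spanned 7711 bp, since 25.9% of its 108 read pairs began inside the gene, more than 100 bp from every annotated start. The TRIB3 starts formed a group around chr20:380760 and another around chr20:381068 downstream, both in the 5′ UTR. The downstream group held 22.9%, 36.5%, 21.9% and 18.2% of the gene's read pairs in DMSO 1, DMSO 2, imatinib 1 and imatinib 2, with overlapping 95% Wilson intervals. In all, 42.4% of the TRIB3 read pairs began inside the gene, more than 100 bp from every annotated start. Their median genomic distance to the 3′ end was 16520 bp, so most of them began far from that end. By library such pairs took 41.4% and 52.7% in DMSO and 31.25% and 27.3% in imatinib, also with overlapping intervals.

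**Figure D3:**
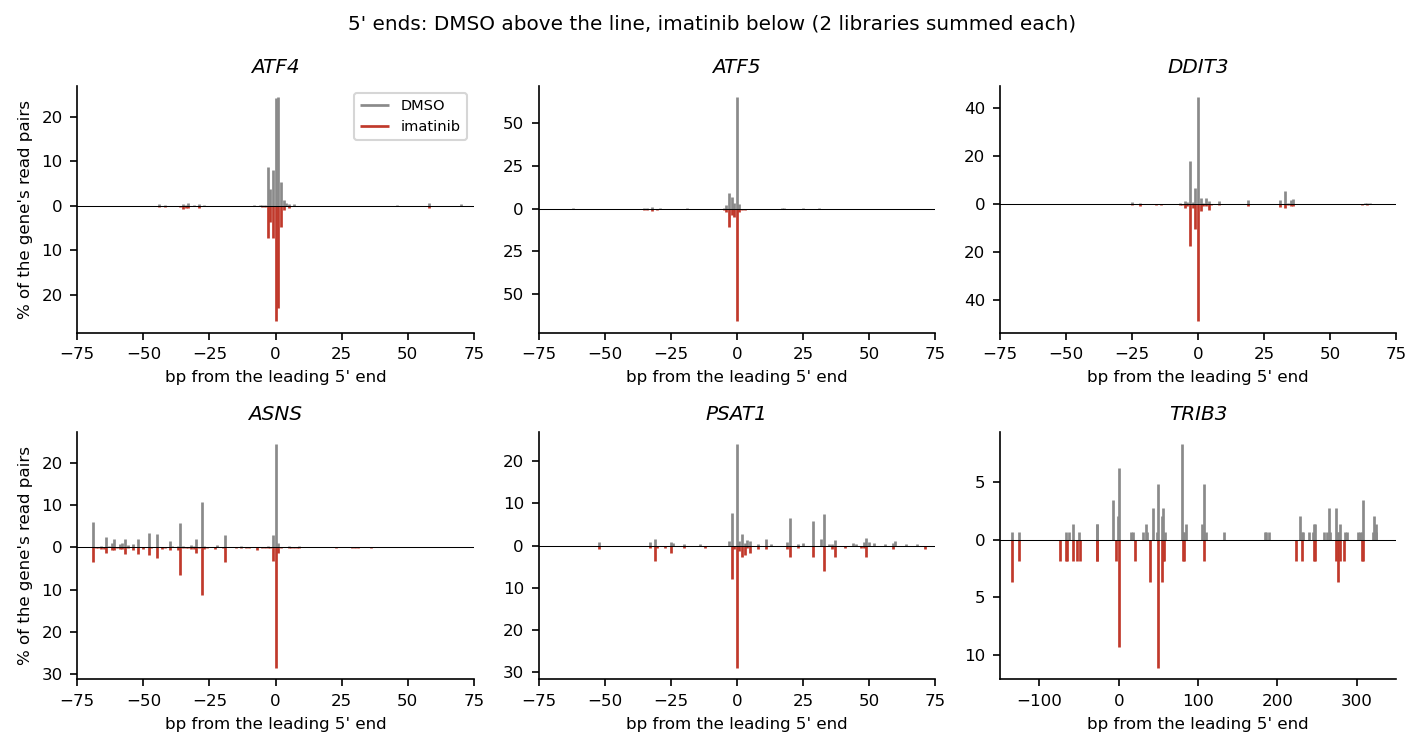
Share of each gene's read pairs (vertical axis, percent) that start at each base, against the distance in bp from the most used start, with the 2 DMSO libraries summed above the line and the 2 imatinib libraries below it. ATF5, ATF4 and DDIT3 have narrow peaks in both conditions, with a small downstream peak in DDIT3, whereas the starts of ASNS, PSAT1 and TRIB3 are spread more widely.

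The 30 bases before the main start of ATF4 are shown with a TATAAA box in capitals, which opens 30 bases upstream of the start. ATF4 was the only one of the 9 expressed members with these letters in the 40 bases upstream of its main start, and 1.83% of 13405 genes with at least 20 read pairs had them. This motif was chosen after the sequence had been seen.
ATF4, chr22:39520532-39520561, plus strand: TATAAAgggccggcgggcggccacggcagc

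The binding site that ATF4 shares with C/EBP factors was searched as TGATGNAA on either strand in the 300 bases upstream of the main start. It was present in 2.13% of the 13405 genes and, among the 9 members, in ASNS and CHAC1. In ASNS it opens 68 bases and in CHAC1 209 bases upstream of the main start. The sites are shown in capitals in 30-base windows, and in CHAC1 the site lies on the opposite strand.
ASNS, chr7:97872458-97872487, minus strand: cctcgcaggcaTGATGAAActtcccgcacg
CHAC1, chr15:40953251-40953280, plus strand: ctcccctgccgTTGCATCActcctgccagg
In ASNS, starts also lay between this site and the main start, among them chr7:97872436 with 11.05% of the read pairs, and 4.61% began at chr7:97872477, just upstream of the site. A match of letters is a description and not a site of binding.

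The start of a molecule sets which upstream reading frames its leader can carry. Read from the main start along the MANE transcript, the leader of ATF4 is 282 bases long and holds 3 ATG codons. The ATG at base 24 is followed directly by a stop codon. The ATG at base 86 opens a frame of 4 codons and the ATG at base 185 opens one of 60 codons that runs past the coding start, counting stop codons. ATF5, with a leader of 315 bases, has the latter arrangement too, a frame of 4 codons at base 69 and one of 60 codons at base 191. The leader of TRIB3 holds 2 ATG codons and that of SESN2 holds 1, while those of ASNS, PSAT1, PHGDH and CHAC1 hold none. Of the TRIB3 read pairs, 30.8% started upstream of its ATG at base 45 and 50.0% upstream of that at base 80. In SESN2 the share upstream of the ATG at base 15 was 74.1%.

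In ATF5, 90.4% to 97.8% of the read pairs in the 4 libraries started upstream of the last of these ATG codons. In ATF4 the share upstream of the 60-codon frame was 86.7% and 84.4% in DMSO, 78.9% in imatinib 1 and 94.96% in imatinib 2. Most other ATF4 read pairs began inside the gene. Such internal 5′ ends, more than 100 bp from every annotated start, took 13.7% and 15.9% in DMSO, 21.5% in imatinib 1 and 5.04% in imatinib 2. The 95% Wilson intervals of the imatinib libraries (20.0% to 23.0% and 3.57% to 7.07%) lay on opposite sides of those of DMSO. The median genomic distance to the 3′ end of these pairs was 639 bp, and whether they are capped RNAs was not tested. Counting only 5′ ends at annotated starts left the ATF4 fold change at 0.33 on the log2 scale (adjusted p = 0.54).

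In DDIT3 a minor start cluster lies 33 bases downstream of the main start, at chr12:57520476-57520478. The leader of DDIT3 from the main start is 174 bases long and holds 3 ATG codons. The ATG at base 31 opens an upstream reading frame of 35 codons, stop included, and an ATG in the same frame follows at base 40. The ATG at base 142 opens a frame of 74 codons that runs past the coding start. The minor start falls on the last base of the first of these codons, so molecules from it lack that codon and keep the 2 later ones. The window around the minor start is shown with the ATG codons at bases 31 and 40 in capitals.
DDIT3, chr12:57520464-57520493, minus strand: cactgagcgtatcATGttaaagATGagcgg

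The minor start of DDIT3 held a smaller share of the gene's read pairs in both imatinib libraries, a difference that did not pass the test. It held 37 read pairs in each DMSO library, or 8.04% and 7.02% of the gene's read pairs. In imatinib 1 it held 19 and in imatinib 2 it held 7, or 2.76% and 2.56%. Both treated libraries lay under both controls, and the shares of 57.0% of all tested TSS clusters did not overlap either. In edgeR's test of cluster usage its log2 fold change was -1.57 relative to the gene, with an unadjusted p of 0.0035 and an adjusted p of 0.091. The value ran from -1.66 to -1.48 when each library was left out. Over all genes 2.8% of TSS clusters passed this test, and of the 7 tested TSS clusters of members, in ATF4, ASNS and DDIT3, none did. The share of DDIT3 read pairs that started upstream of the ATG at base 31 was 87.6% and 86.5% in DMSO and 94.2% and 93.8% in imatinib.

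The 3′ ends were sharper than the starts in most members. In ATF4 99.6%, in DDIT3 99.6%, in PHGDH 99.1%, in TRIB3 99.0% and in ASNS 96.5% of the read pairs ended in a single group of neighbouring positions, the poly(A) site. The main site of ASNS lies 454 bp before the end of the MANE transcript, at an annotated end. The 30 bases up to the most used position of these sites are shown with the poly(A) signal AATAAA or ATTAAA in capitals. Either signal occurred in the last 40 bases before 68.8% of 30461 PAS clusters.
ATF4, chr22:39522651-39522680, plus strand: ctgtgtgttccAATAAAttattttgtaggg
DDIT3, chr12:57516594-57516623, minus strand: tgtccctatctATTAAAgtgactttctatg
TRIB3, chr20:397528-397557, plus strand: cctgtgcctAATAAAggagaattatgaaat
ASNS, chr7:97852131-97852160, minus strand: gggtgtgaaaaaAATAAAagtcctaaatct

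ATF5, SESN2 and PSAT1 had further 3′ ends with at least 5% of the read pairs in a condition. ATF5 ended at its annotated 3′ end in 92.6% and 90.9% of the read pairs in DMSO, 82.1% in imatinib 1 and 64.0% in imatinib 2. Most of the remainder ended at 2 sites inside the last intron of the MANE transcript, around chr19:49931125 and chr19:49931830. Such molecules stop before the last coding exon of ATF5. The earlier site lies 104 bp before the end of a short annotated ATF5 transcript, and AATAAA precedes it, whereas neither signal precedes the later one.
ATF5, intronic, chr19:49931096-49931125, plus strand: ccatgtattcAATAAAtattgagtgcctac
ATF5, intronic, chr19:49931801-49931830, plus strand: taattaatgagtaaagatgaaacaaggcat
ATF5, last exon, chr19:49933906-49933935, plus strand: agcaaaAATAAAacgaaacatttcctctgg

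The earlier intronic site of ATF5 held 3, 21, 23 and 23 read pairs in DMSO 1, DMSO 2, imatinib 1 and imatinib 2, or 2.22%, 6.16%, 6.99% and 25.8%. The 95% Wilson interval of imatinib 2, 17.9% to 35.8%, lay above those of the other 3 libraries. The later intronic site held 2, 7, 26 and 6 read pairs, or 1.48%, 2.05%, 7.90% and 6.74%. At both sites the treated libraries lay above the controls, and the shares of 38.2% of all tested PAS clusters did not overlap between conditions. In the usage test the log2 fold change of the earlier site was 1.61 relative to the gene (unadjusted p = 0.045, adjusted p = 1.0), and the value was 2.70 without imatinib 1 and 0.48 without imatinib 2. The later site had too few read pairs for the test with all 4 libraries. Among all PAS clusters 0.0605% passed, and of the 2 tested PAS clusters of members, both in ATF5, none did.

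SESN2 ended 1042 bp before its main site, in the 3′ UTR, in 17.4% and 28% of the read pairs in DMSO and 10.8% and 26.1% in imatinib. These shares rest on 4, 7, 4 and 6 read pairs and overlap. Of the 10 bases that follow this site in the genome 9 are A, against 1 of 10 at the main site, and neither signal precedes it. Oligo-dT can prime on such a stretch, which was not tested here. In SESN2 16.7% of the read pairs were followed by at least 7 A in 10 nt, and in the other 8 expressed members 0.0% to 2.01%.
SESN2, proximal, chr1:28281419-28281448, plus strand: gtgtgaggcgtcaggagagaggccaagtac
SESN2, main, chr1:28282461-28282490, plus strand: aAATAAAcgttcgctgaggttttgtttcat

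PSAT1 ended 139 bp before its main site in 4.98% and 10.2% of the read pairs in DMSO and 4.03% and 4.44% in imatinib. The counts behind these shares were 11, 18, 5 and 4 read pairs.

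**Figure D4:**
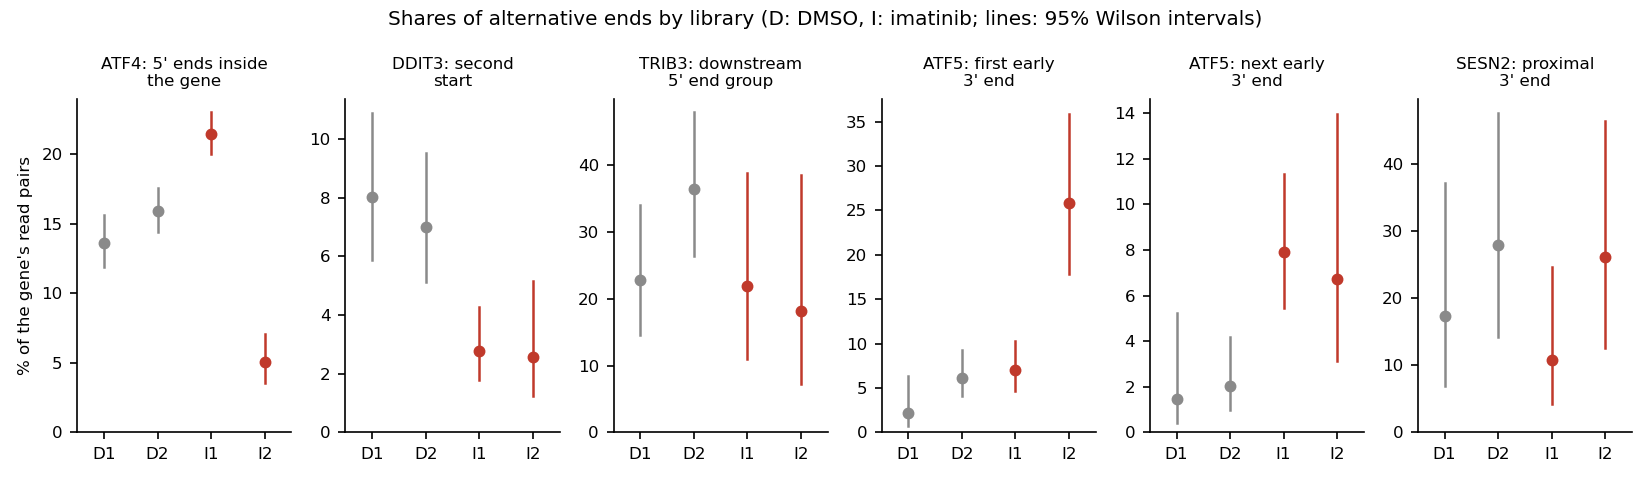
Share of the gene's read pairs (vertical axes, percent, from 0) that used an alternative end in each library, with 95% Wilson intervals that cover counting error only. The downstream start of DDIT3 is at 8.04% and 7.02% in DMSO and 2.76% and 2.56% in imatinib, and the first intronic 3′ end of ATF5 is highest in imatinib 2 at 25.8%.

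Linked ends were then compared as transcript isoforms (TIFs), each of which joins a cluster of starts (TSS) to a cluster of poly(A) sites (PAS) through 4 or more read pairs. Of 34441 TIFs 18 lay in members, 5 in ASNS, 4 in PSAT1, 3 each in ATF4 and ATF5, 2 in DDIT3 and 1 in PHGDH. TRIB3, CHAC1, SESN2 and VLDLR had none under these limits. Of the 11 member TIFs that passed the filter on low counts none was called, against 11.6% of all 16020 tested TIFs. DESeq2 called 0 of them too, and 2 had an unadjusted p under 0.05 with edgeR.

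The main TIF of ATF4, from chr22:39520562 to chr22:39522680, took 78.9% and 74.6% of the gene's read pairs in DMSO and 69.0% and 88.5% in imatinib. Its log2 fold change was 0.44 ± 0.32 (SE, adjusted p = 0.42). Without imatinib 2 it was 0.86 (adjusted p = 0.020), and without imatinib 1 it turned to -0.11 (adjusted p = 0.85). The main DDIT3 TIF took 75.7% and 76.1% of the gene's read pairs in DMSO and 85.03% and 84.7% in imatinib, with a log2 fold change of 0.57 ± 0.30 (SE, adjusted p = 0.24). In ASNS the TIFs from chr7:97872408 and chr7:97872436 ended at the same site, with log2 fold changes of 0.90 (adjusted p = 0.30) and 0.58 (adjusted p = 0.34). The former was called without imatinib 2 (1.18, adjusted p = 0.016), and it was 2.00 without DMSO 1 and 0.22 without DMSO 2.

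The TIF of ATF5 that ends at the earlier intronic site had 3, 14, 16 and 21 read pairs and a log2 fold change of 1.81 ± 0.66 (SE, unadjusted p = 0.021, adjusted p = 0.11). It passed the test without imatinib 1 (2.39, adjusted p = 0.0029). It was 1.13 without imatinib 2 (adjusted p = 0.27), 1.26 without DMSO 1 (adjusted p = 0.46) and 2.93 without DMSO 2 (adjusted p = 0.075). The full-length TIF of ATF5 had a log2 fold change of 0.03 ± 0.46 (SE, adjusted p = 0.97), and it ran from -0.75 to 0.53 when each library was left out. PHGDH had a single TIF, from chr1:119711936 to chr1:119744213, with 75.1% to 76.7% of its read pairs in every library.

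The wider pathway was read from 5 lists with 76 genes, of which 65 were tested. In them 4 genes were called higher and 3 lower after imatinib, or 10.8% of those tested, beside 14.8% of all genes. The amino acid synthesis and one-carbon list had 0 of 14 tested genes called, with log2 fold changes from -0.71 to 1.64. PSPH, the last enzyme of serine synthesis, gave 80.3 and 78.8 CPM in DMSO and 90.9 and 79.6 CPM in imatinib (log2 fold change 0.10, adjusted p = 0.83).

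Of 10 tested amino acid transporters 1 was called higher and 1 lower. SLC6A9, a glycine carrier, rose from 7.51 and 2.31 CPM to 35.2 and 38.2 CPM (log2 fold change 2.96, adjusted p = 0.0066) and passed the test with any library left out. SLC38A1, a glutamine carrier, fell from 28.02 and 30.6 CPM to 11.9 and 10.7 CPM (log2 fold change -1.36, adjusted p = 0.022). It lost the call without DMSO 1 (-1.45, adjusted p = 0.054), without DMSO 2 (-1.32, adjusted p = 0.12) and with annotated starts only (-1.03, adjusted p = 0.14). SLC7A11, the cystine carrier and a known ATF4 target, had a log2 fold change of 0.63 (adjusted p = 0.32).

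Of 13 aminoacyl-tRNA synthetases and related genes 1 was called in each direction. EPRS1, which charges tRNAs with glutamate and proline, rose from 103 and 74.2 CPM to 270 and 294 CPM (log2 fold change 1.67, adjusted p = 0.0068). It was 0.85 with annotated starts only (adjusted p = 0.080) and 1.44 without DMSO 2 (adjusted p = 0.065). WARS1, the tryptophan enzyme, fell from 139 and 94.0 CPM to 57.5 and 46.7 CPM (log2 fold change -1.16, adjusted p = 0.036), and it was -0.87 without DMSO 1 (adjusted p = 0.30).

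Of 12 other tested genes of the pathway, PPP1R15A was the 1 gene called. PPP1R15A, the stress-induced subunit of the phosphatase that removes the phosphate from eIF2, rose from 70.5 and 71.5 CPM to 185 and 136 CPM (log2 fold change 1.18, adjusted p = 0.024). Its call was lost without DMSO 1 (1.14, adjusted p = 0.17), without DMSO 2 (1.17, adjusted p = 0.17) and with annotated starts only (0.90, adjusted p = 0.058). The factors ATF3 and CEBPB, partners and targets of ATF4, had log2 fold changes of 0.48 (adjusted p = 0.33) and -0.08 (adjusted p = 0.87).

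Among the 16 genes of the eIF2 kinases, phosphatases and eIF2B, 1 was called higher and 1 lower. EIF2AK1, the kinase that senses heme, rose from 88.4 and 88.1 CPM to 149 and 186 CPM (log2 fold change 0.92, adjusted p = 0.047). This call lay close to the threshold. It was lost with DESeq2 (adjusted p = 0.055), with annotated starts only (adjusted p = 0.069), with no filter on low counts (adjusted p = 0.051), without DMSO 1 (adjusted p = 0.30), without DMSO 2 (adjusted p = 0.33) and without imatinib 2 (adjusted p = 0.052). The kinases EIF2AK2, EIF2AK3 and EIF2AK4, which respond to double-stranded RNA, misfolded protein in the endoplasmic reticulum and uncharged tRNA, had log2 fold changes of 0.32, 0.78 and -0.07 (adjusted p = 0.50, 0.26 and 0.93). EIF2B3, a subunit of the factor that reloads eIF2, fell from 270 and 247 CPM to 148 and 121 CPM (log2 fold change -0.94, adjusted p = 0.041). It lost the call without DMSO 1 (-0.90, adjusted p = 0.26) and without DMSO 2 (-1.02, adjusted p = 0.20).

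The unfolded protein response shares DDIT3 and ATF4 with the amino acid response, and its listed chaperones and other genes lay mostly below 0. Of 14 tested genes 0 were called higher and 2 lower, or 14.3%, beside 14.8% of all genes in either direction and 6.15% lower. The median log2 fold change of the list was -0.54, beside 0.03 over all tested genes. SDF2L1, a co-chaperone of the endoplasmic reticulum, fell from 557 and 578 CPM to 127 and 132 CPM (log2 fold change -2.14, adjusted p = 0.0022) and passed the test with any library left out. MANF, a secreted factor induced by the same stress, fell from 82.3 and 44.6 CPM to 19.5 and 31.1 CPM (log2 fold change -1.34, adjusted p = 0.0496). It was -0.86 without DMSO 1 (adjusted p = 0.33) and lost the call with annotated starts only (adjusted p = 0.053), with read pairs 300 bp to 2 Mb apart and under 7 A downstream (adjusted p = 0.052) and with ends within 100 bp of the body (adjusted p = 0.053). HSPA5, the main chaperone of that compartment, had a log2 fold change of -0.90 (adjusted p = 0.095).

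RELN, the gene of reelin, a ligand of VLDLR, rose from 20.2 and 13.3 CPM to 190 and 141 CPM (log2 fold change 3.32, adjusted p = 0.0015) and passed the test with any library left out.

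Erythroid genes moved in the same libraries, with 13 of 15 called higher and 0 lower, and a median log2 fold change of 2.04. Over all tested genes 8.69% were called higher. Some of the globin genes among them shared read pairs, so they are not separate counts. When only read pairs of a single gene were counted, HBG1 and HBE1 had no value, and the log2 fold change of HBG2 moved from 1.27 to 2.84. ALAS2, the first enzyme of heme synthesis in red cells, rose from 27.2 and 30.6 CPM to 464 and 400 CPM (log2 fold change 3.90, adjusted p = 0.00090). EPB42 and SLC4A1, proteins of the red cell membrane, had log2 fold changes of 6.29 (adjusted p = 0.00090) and 7.49 (adjusted p = 0.0022). The part of this erythroid change in the values of the 10 members was not tested.

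**Figure D5:**
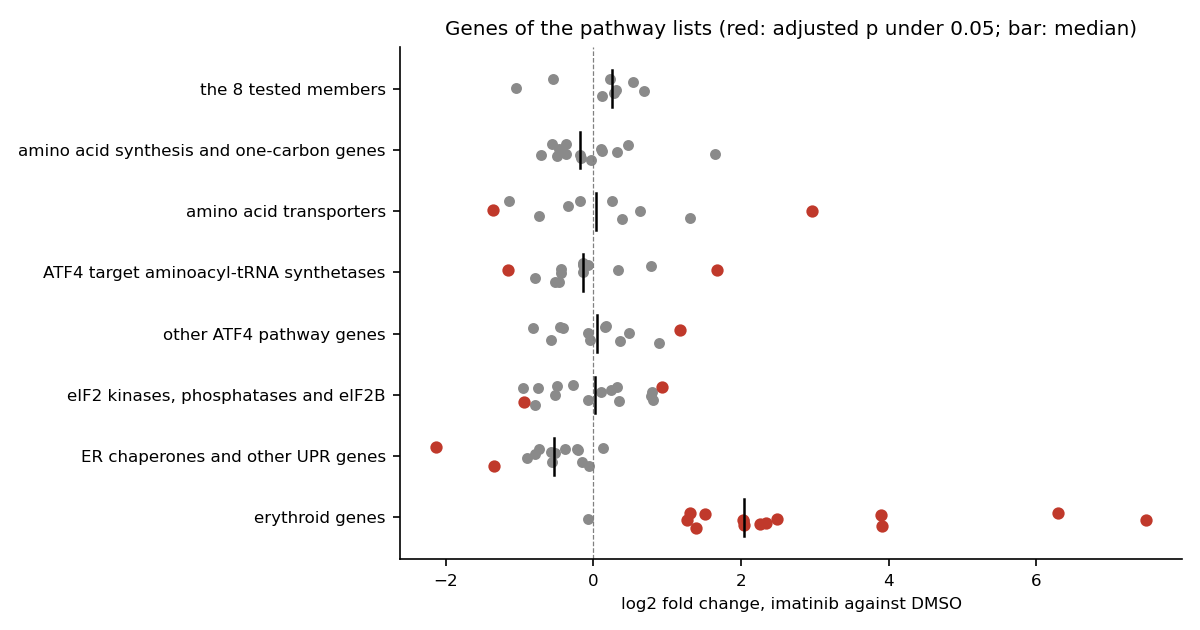
Log2 fold changes, imatinib against DMSO, of the 8 tested members and of the tested genes of 7 lists, with genes at an adjusted p under 0.05 in red and a bar at each median. The members' median is 0.26 with no gene called, the 5 lists of the ATF4 pathway have medians from -0.18 to 0.05 with 4 genes called higher and 3 lower, and 13 of 15 erythroid genes are called higher.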

How the data were processed

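The authors trimmed reads with cutadapt 1.16, aligned them to hg38 with STAR 2.5.3a, kept uniquely placed pairs of a single chromosome, collapsed UMI duplicates and deposited raw counts of read pairs per end position, without filters on priming or distance. End positions and counts were used as deposited. The 3′T-fill and long-read data were not used here. Genes, starts and exons came from Gencode v44. Counts were tested with edgeR 4.0.16 (quasi-likelihood, TMM factors, deposited totals as library sizes, filterByExpr) and adjusted over all features by Benjamini-Hochberg, with a threshold of 0.05; DESeq2 1.42.0 was an alternative. Tags with at least 1 normalized count in 2 libraries were clustered by 10 bp linkage, and usage was tested with diffSpliceDGE. TIF pairs were 300 bp to 2 Mb apart with under 7 A in 10 nt downstream. End groups were joined within 25 bp. The 95% intervals of shares are Wilson intervals, those of fold changes come from the quasi-likelihood fit, and that of the CHAC1 ratio is exact. The main test used no replicate block. Deviations of same-numbered libraries correlated at r = -0.22 over genes, which cannot decide whether these libraries were paired, and the labels do not say. A block was an alternative. All 10 members are described, and from each list up to 3 called genes per direction plus EIF2AK1 to EIF2AK4, ATF3, CEBPB, PSPH, SLC7A11 and HSPA5. Some listed genes and markers are not reported here. The members and lists were chosen with earlier results of these data known. The gene and TIF tests, and the usage test on PAS clusters, were checked on simulated data. There, most gene and TIF changes of 1 on the log2 scale were not called. A missing call therefore does not exclude a change of that size.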

Additional observations from a re-analysis of the deposited data

How the results depend on the processing

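The call on the members held under most settings, and the counts over all genes depended on them. No member was called in the main test, with DESeq2, RLE factors, the replicate block, stricter read pairs, 100 bp around the body, single-gene pairs or annotated starts only (the last chosen after seeing the data). With no filter on low counts 1 was called (TRIB3), and leaving out a library gave 0 to 2, the 2 being ATF4 and TRIB3 without imatinib 2. The direction of the fold change turned in 4 of 103 combinations of member and setting, in ATF4, ATF5 (2 settings) and ASNS. Leaving out a library also moved the member TIFs. The ATF5 TIF of the earlier intronic site had a log2 fold change of 2.39 without imatinib 1 and 1.13 without imatinib 2. The ATF5 TIF of the later intronic site did not pass the filter with all 4 libraries and was at 2.74 without imatinib 2. The ATF4 TIFs from chr22:39520527 and chr22:39520562 were at 1.45 and 0.86 without imatinib 2, and at 0.19 and -0.11 without imatinib 1. The ASNS TIF from chr7:97872408 was at 1.18 without imatinib 2 and 0.60 without imatinib 1.

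Over all genes 1800 were called, 2736 with no filter, 820 to 3955 with a library left out and 1148 with the replicate block. The TIFs called were 1853, then 1209 with DESeq2, 3096 with no filter, 700 to 3570 with a library left out and 986 with the block. Changed TSS clusters were 255, then 74 with the block and 5 to 212 with a library left out, and changed PAS clusters were 4, then 1 with the block and 0 to 22. With the block the calls of SLC38A1, WARS1, PPP1R15A, EIF2AK1, EIF2B3 and MANF were lost, 11 erythroid genes were called, and no call of a member changed. With the numbers crossed, 3723 genes, 4175 TIFs, 2 members (TRIB3 and ASNS) and 2 member TIFs were called. This crossing was chosen after the deviations of same-numbered libraries had been seen, so its higher counts are not an independent check. The cause of these differences was not tested. Under 20 bp linkage the start clusters of ASNS merged into 1, and so did those of PSAT1.

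Depth limits VLDLR, CHAC1, SESN2 and the minor ends most, and 2 libraries per condition limit every test.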
